A study of Mus musculus with 32 samples.

Results

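The genes described here encode the subunits of the proteasome. Its members were taken by symbol, but the group was chosen with earlier results of these data known. Of 54838 genes in the expression table of tibialis anterior (TA) muscle, 54723 carried a symbol, and 39 of these belonged to the Psma, Psmb, Psmc and Psmd series. The 38 genes with 10 or more counts in at least 4 libraries were kept. The gene left out was Psmb11, the thymic subunit, which did not reach the minimum in any library. RNA was sequenced in 32 libraries of TA muscle, in 8 groups of 4 that combine the WT or Mtm1 KO genotype with an age of P1, P14, P21 or P35. All mice were of the C57BL6/J background. The KO mice (Mtm1-/y) carried a deletion of exon 4 of the X-linked Mtm1 gene in all cells, and in the study's design the WT animals are their littermates. MTM1 is a phosphoinositide phosphatase whose loss causes X-linked myotubular myopathy. Because the deletion was in all cells, a change in the muscle of these mice may arise in any tissue. No group received a treatment.

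The 26S proteasome degrades proteins that carry chains of ubiquitin. Its core, the 20S particle, is a barrel made of rings of alpha subunits (the Psma genes), which gate the entry, and rings of beta subunits (the Psmb genes), of which Psmb5, Psmb6 and Psmb7 hold the proteolytic sites. In immune cells, and in other cells exposed to interferon, these are replaced by Psmb8, Psmb9 and Psmb10, which shift the cleavage preference towards peptides for antigen presentation. The 19S regulatory particle caps the core. Its ATPases (the Psmc genes) unfold the substrate and its other subunits (most Psmd genes) bind ubiquitin chains, remove them and hold the particle together, while Psmd5, Psmd9 and Psmd10 help to assemble the ATPase ring and leave the finished particle. In skeletal muscle this pathway carries much of the breakdown of contractile proteins, and it is well known for its activation in atrophy.

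The deposited values were expected counts per gene, summing to 49321035 to 85631408 per library. Levels are given as CPM, the counts of a gene relative to the library's total, scaled between the libraries of an age by TMM, which sets the bulk of genes equal. A gene was called changed at an adjusted P under 0.01 in the two-sided quasi-likelihood test of edgeR, adjusted by Benjamini-Hochberg across every gene tested. Mtm1, the targeted gene, was at 16.04 to 17.99 CPM in the WT libraries and at 2.24 to 3.06 CPM in the KO libraries at P21, and the genotypes were apart at each age. At P1 its difference was not called (log2 fold change -0.98 ± 0.17 (SE), adjusted P = 0.0668). Muscle fibre markers summed to 25638 to 154410 CPM in every library. The P1 libraries also held keratinocyte markers at a summed 2671 to 9819 CPM, against 2.16 to 5.44 CPM at the 3 later ages, and fibroblast markers at 14032 to 24193 CPM. The labels number 4 replicates per group without naming the animals, so P-values measure the spread between these libraries.

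Per kilobase of the principal transcript, the constitutive catalytic subunits had the highest levels of the group in WT muscle at P35. For the levels per kb, CPM was scaled over all 32 libraries and not within the age. Psmb7 led with 264.8 ± 26.8 CPM per kb (SD, n = 4), followed by Psmb6 with 168.8 ± 15.5 and Psmb5 with 147.6 ± 8.91 CPM per kb. The 31 constitutive subunits of both particles, these 3 included, ran from Psmb7 down to Psma2, which had 31.1 ± 1.14 CPM per kb. All 3 assembly chaperones and all 3 immune subunits lay below them. Psmd9, the highest of the chaperones, had 10.02 ± 0.658 CPM per kb. Psmb10, the highest of the immune subunits, had 9.44 ± 1.2 CPM per kb. Psmb8 was at 4.05 ± 1.11 and Psmb9 at 1.88 ± 0.478 CPM per kb. Psma8, an alpha subunit known from the testis, was nearly absent, with 17 to 37 counts per library at P1 and 0 to 10 counts at the later ages. These levels rest on 1 annotated transcript length per gene, and a shorter transcript in muscle would raise the level of its gene.

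**Figure D1:**
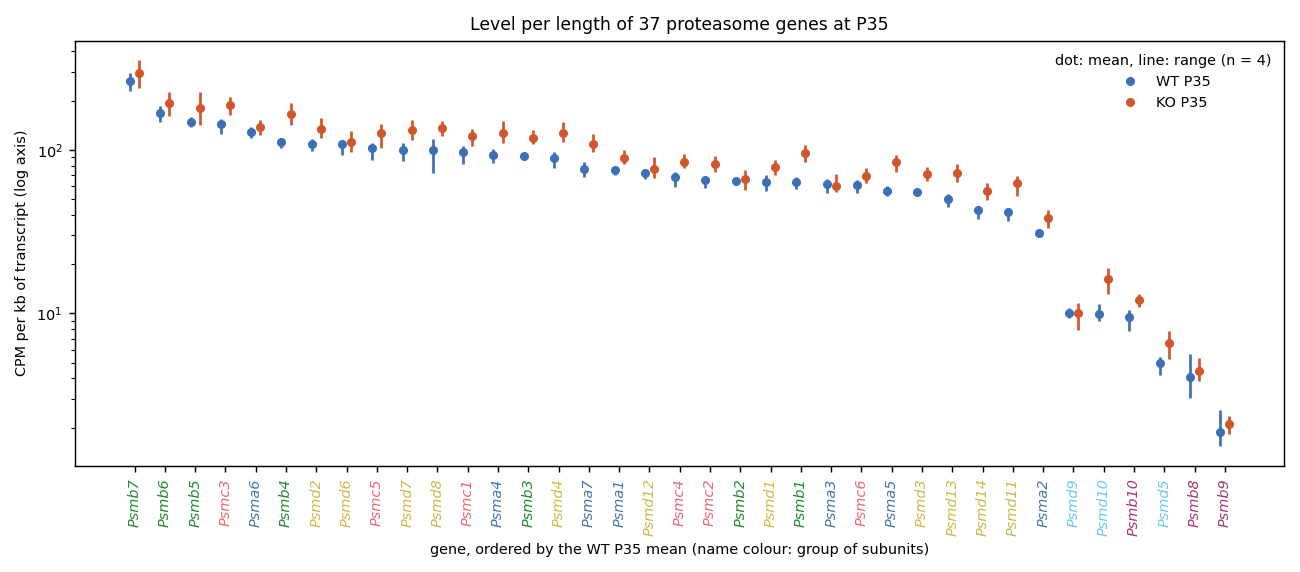
Level per length (CPM per kb of transcript, log axis) of 37 proteasome genes at P35, ordered by the WT mean, with WT in blue and KO in orange, dots for means and lines for the range of 4 libraries. CPM was scaled over all 32 libraries. The catalytic subunits Psmb7, Psmb6 and Psmb5 stand at the left, and the chaperones and immune subunits lie far below the structural subunits, from 10.02 CPM per kb (Psmd9) downwards in WT.

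At P21 and P35 the proteasome genes were higher in Mtm1 KO muscle. At each of these 2 ages 13 of 37 tested genes rose and none fell (35.1%). Of all genes tested, 4.74% rose and 3.39% fell at P21, and 12% rose and 12.5% fell at P35. Without adjustment, 28 genes at P21 (75.7%, against 35.1% of all genes) and 26 at P35 (70.3%, against 50.3%) had P under 0.05. The shifts were small and shared by nearly the whole group. The median log2 fold change was 0.31 at P21, with 35 of 37 genes above 0, and 0.34 at P35, with 36 of 37 above 0, where the median of all genes tested was 0.01 and 0.04. Above 0 were 51% of all genes tested at P21 and 53.1% at P35. The proteasome genes varied together between libraries, as given below, so these are not 37 separate observations. KO libraries lay above all WT libraries for 23 of 37 genes at P21 (62.2%, against 14.6% of all genes) and for 24 of 37 at P35 (64.9%, against 20.7%). For no proteasome gene did they lie below all WT libraries, as they did for 10.8% and 18.9% of all genes.

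Summed over the 38 genes, WT libraries at P21 held 3327, 3406, 2803 and 3242 CPM and KO libraries 4222, 4096, 3633 and 4103 CPM. The KO mean was 1.26-fold the WT mean, and the groups did not overlap. At P35 WT libraries held 3853, 3852, 3264 and 3791 CPM and KO libraries 4313, 4224, 4964 and 5253 CPM, a ratio of 1.27 between the means. KO replicates 3 and 4 were the highest of that age, and WT replicate 3 stood apart below the other WT libraries. In whole muscle, a change in the number of cells of a type and a change in RNA per cell cannot be told apart.

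**Figure D2:**
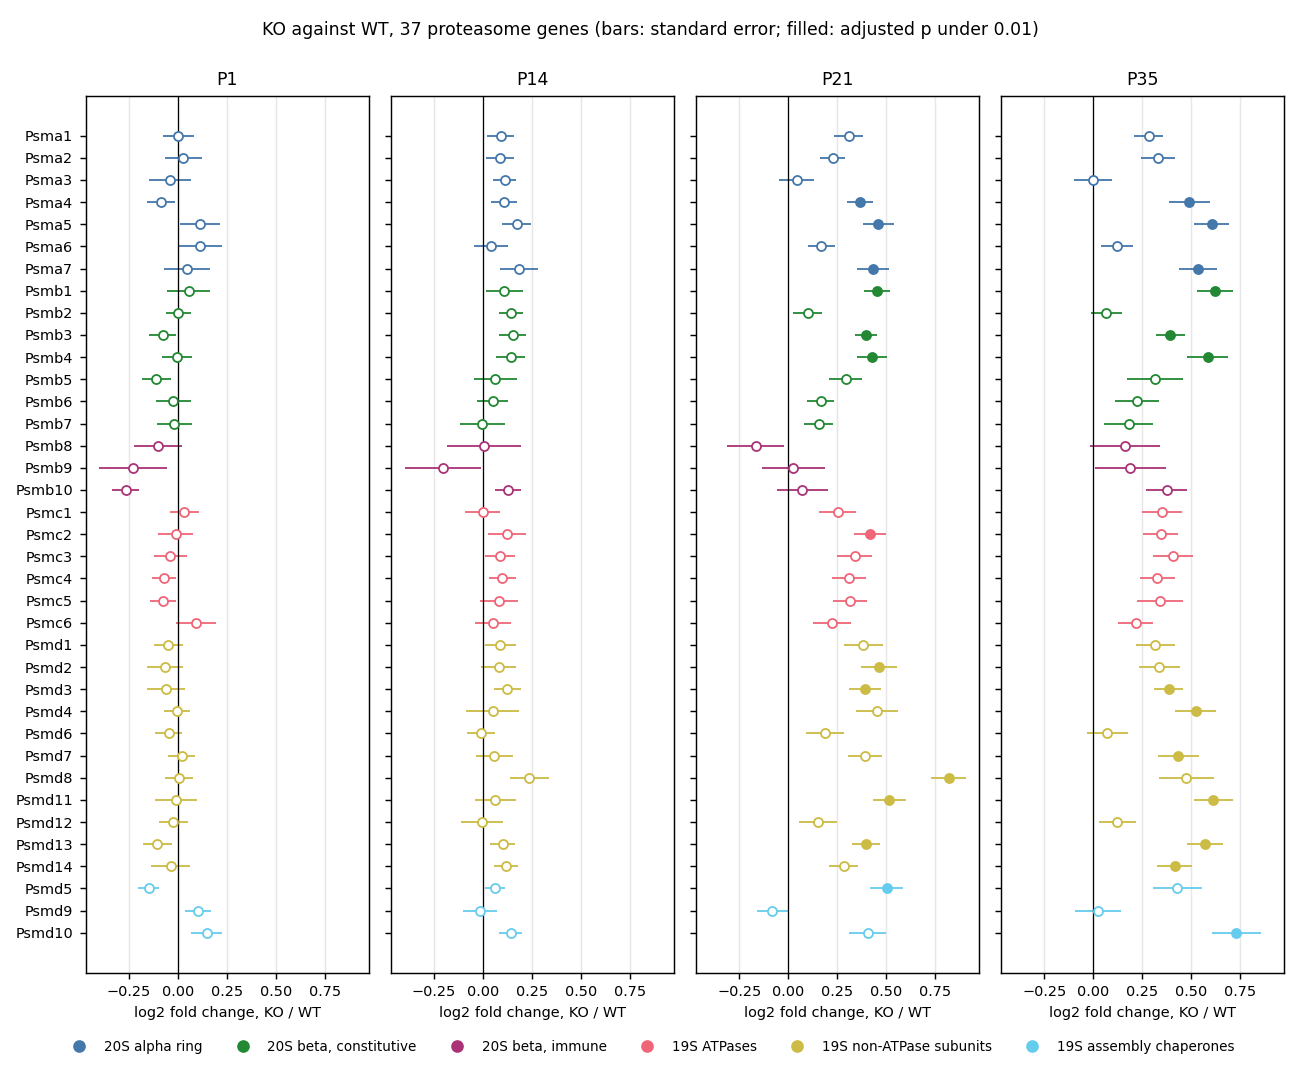
Log2 fold change of KO over WT (x axis) for 37 proteasome genes at P1, P14, P21 and P35, with bars for the standard error and filled points for genes called at an adjusted P under 0.01. The points lie around 0 at P1, and 35 of 37 lie above 0 at P21 (51% of all genes) and 36 of 37 at P35 (53.1% of all genes). The filled points number 13 at each of the later ages, and none belongs to the immune subunits.

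Of the 13 genes called at each age, 9 were called at both, which is 69.2% of each list. They were Psma4, Psma5 and Psma7 of the alpha ring, Psmb1, Psmb3 and Psmb4 of the beta ring, and Psmd3, Psmd11 and Psmd13 of the 19S particle. Called at P21 but not at P35 were Psmc2, Psmd2, Psmd5 and Psmd8, and called at P35 but not at P21 were Psmd4, Psmd7, Psmd10 and Psmd14. Whether the KO effect on these 8 genes differed between the ages is given by the interaction below, in which none was called. Requiring also a log2 fold change over about 0.59 left 1 gene at P21, Psmd8 (2.7%, against 3.18% of all genes), and 4 at P35, Psma5, Psmb1, Psmd10 and Psmd11 (10.8%, against 8.49%), so above that fold size the share of proteasome genes was close to that of all genes.

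In the alpha ring, which forms the gate of the core, 3 of 7 genes tested rose at both ages, with a median log2 fold change of 0.31 at P21 and 0.33 at P35. Psma5 (chr3:108256926-108279974, GRCm38) was at 48.0, 52.4, 43.2 and 45.6 CPM in WT libraries at P21 and at 70.9, 65.0, 59.9 and 64.5 CPM in KO libraries. At P35 it was at 61.1, 63.3, 55.4 and 60.4 CPM in WT and at 85.5, 80.7, 99.6 and 99.3 CPM in KO. The groups were apart at both ages. The log2 fold change was 0.46 ± 0.08 at P21 (SE, adjusted P = 0.00374) and 0.60 ± 0.09 at P35 (adjusted P = 0.000787). Psma4 and Psma7 rose by 0.37 and 0.44 on the log2 scale at P21 and by 0.49 and 0.54 at P35. Psma3 had no such difference under TMM, with 127 to 167 CPM in WT and 147 to 168 CPM in KO at P21 and a log2 fold change of -0.00 ± 0.10 at P35 (adjusted P = 0.988). With library totals its log2 fold change at P35 was 0.40. Psma3, Psma4 and Psma5 shared reads with other loci in 19, 30 and 29 of the 32 libraries, so that their counts were partly estimates.

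In the constitutive beta ring the genes that rose were 3 of 7 at both ages, Psmb1, Psmb3 and Psmb4, which are structural subunits without a proteolytic site. Psmb1 (chr17:15475021-15499751) was at 74.5, 78.9, 66.6 and 71.4 CPM in WT and at 102, 103, 93.3 and 101 CPM in KO at P21. At P35 it was at 98, 101, 87.5 and 96.8 CPM in WT and at 136, 131, 160 and 163 CPM in KO. Its log2 fold change was 0.45 ± 0.07 at P21 (adjusted P = 0.00231) and 0.62 ± 0.09 at P35 (adjusted P = 0.000854), without overlap at either age. Psmb3 rose by 0.40 and 0.39 and Psmb4 by 0.43 and 0.58 on the log2 scale at P21 and P35. Psmb2, the remaining structural subunit, was not called, with 0.10 and 0.07.

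The 3 constitutive catalytic subunits were not called at any age under TMM. With library totals, where the median of all genes was 0.44, 35 of the 37 genes tested were called at P35. Thus not all of the 3 stayed uncalled. Psmb5, the chymotrypsin-like subunit, was at 102, 112, 90.2 and 102 CPM in WT and at 129, 130, 111 and 128 CPM in KO at P21 (0.29 ± 0.08, adjusted P = 0.0333). At P35 it was at 115, 121, 106 and 114 CPM in WT and at 114, 117, 163 and 174 CPM in KO, with 2 KO libraries within the WT range and 2 well above it (0.31 ± 0.14, adjusted P = 0.105). Psmb6, the caspase-like subunit, was at 102 to 126 CPM in WT and 114 to 154 CPM in KO at P35 (0.22 ± 0.11, adjusted P = 0.134). Psmb7, the trypsin-like subunit, was at 229 to 289 CPM in WT and 246 to 354 CPM in KO at P35 (0.18 ± 0.12, adjusted P = 0.268). All 3 had log2 fold changes above 0 at both ages, and KO libraries 3 and 4 held the highest values of each at P35.

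The 6 ATPases formed the most uniform group. Their log2 fold changes at P21 ran from 0.22 (Psmc6) to 0.42 (Psmc2) and at P35 from 0.22 (Psmc6) to 0.41 (Psmc3). Of these, Psmc2 at P21 was called (adjusted P = 0.00795) and none at P35, although WT and KO libraries were apart for 4 of 6 genes at each age. Summed, the ATPases were at 574 to 724 CPM in WT and 755 to 877 CPM in KO at P21, and at 653 to 806 CPM in WT and 851 to 1048 CPM in KO at P35. For Psmc3, the gene Slc39a13 overlaps on the opposite strand and held 12.5% as many counts over all libraries.

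Of the 11 non-ATPase subunits of the 19S particle, 5 rose at P21 and 6 at P35, with medians of 0.39 and 0.42. Psmd8 (chr7:29174188-29180701), a lid subunit, had the largest log2 fold change of the 37 genes at P21. Its WT libraries were at 85.6, 97.4, 85.9 and 89.2 CPM and its KO libraries at 174, 174, 140 and 144 CPM (0.82 ± 0.09, adjusted P = 0.00072). At P35 WT libraries were at 134, 153, 95.8 and 149 CPM and KO libraries at 168, 194, 179 and 198 CPM. The groups were again apart, but WT replicate 3 was far below the other WT libraries and the difference of 0.48 ± 0.14 was not called (adjusted P = 0.0224).

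Psmd11 (chr11:80428615-80473248), another lid subunit, which is known as a limiting factor for the assembly of 26S particles in stem cells, was at 85.0, 93.2, 73.8 and 84.7 CPM in WT and at 128, 127, 108 and 119 CPM in KO at P21. At P35 it was at 109, 103, 89.2 and 108 CPM in WT and at 133, 162, 161 and 170 CPM in KO. Each KO library exceeded each WT library at both ages, by 0.52 ± 0.09 (adjusted P = 0.00372) and 0.61 ± 0.10 (adjusted P = 0.00123) on the log2 scale. Psmd2 of the base rose at P21 by 0.46, and at P35 its 0.34 was not called. Psmd4, the ubiquitin receptor, and Psmd14, the deubiquitinase of the lid, rose at P35 by 0.52 and 0.42. Psmd6 and Psmd12, both lid subunits, were not called at either age, with 0.19 and 0.15 at P21 and 0.07 and 0.12 at P35. For Psmd13, which rose by 0.40 and 0.57, the gene Sirt3 overlaps on the opposite strand and held 21.3% as many counts over all libraries.

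Of the 3 assembly chaperones, 1 rose at each age, Psmd5 at P21 and Psmd10 at P35. Psmd10 (chrX:140948429-140956728), also known as gankyrin, had the largest log2 fold change of the 37 genes at P35. Its WT libraries were at 11.6, 13.8, 10.96 and 12.4 CPM and its KO libraries at 18.2, 16.8, 23.7 and 22.4 CPM (0.73 ± 0.13, adjusted P = 0.00173). At P21 its WT libraries were at 8.60, 9.499, 8.998 and 8.75 CPM and its KO libraries at 10.2, 13.5, 12.2 and 11.5 CPM, which was apart but not called (0.41 ± 0.09, adjusted P = 0.0152). Psmd5 rose at P21 by 0.50 (adjusted P = 0.00374) and had 0.43 at P35, which was not called (adjusted P = 0.0214). Psmd9 was not called, with log2 fold changes of -0.08 ± 0.08 and 0.02 ± 0.12 and overlapping libraries at both ages.

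**Figure D3:**
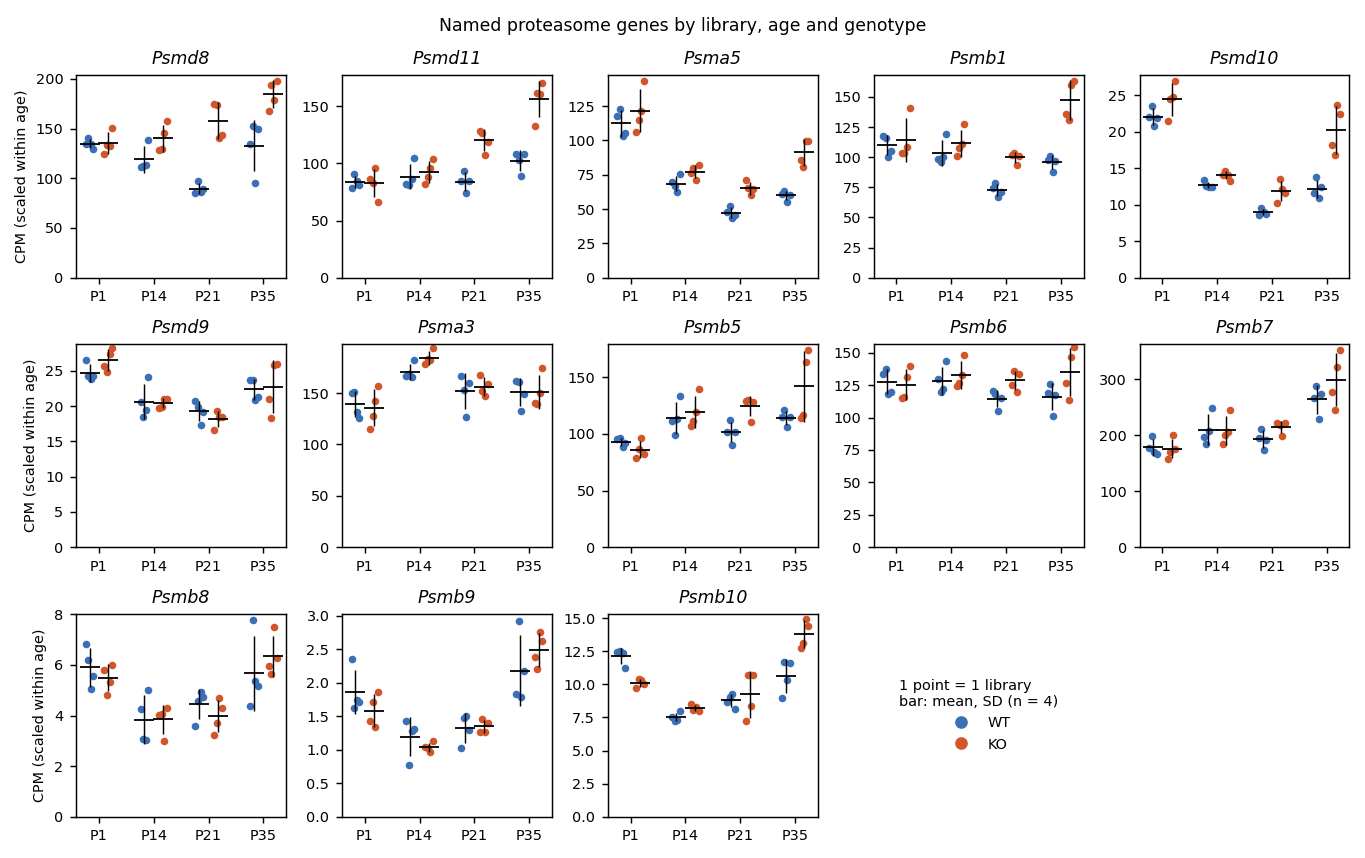
CPM (y axis, scaled within age, from 0) of 13 named proteasome genes in each WT (blue) and KO (orange) library at the 4 ages, with bars for mean and SD (n = 4). For Psmd11, Psma5 and Psmb1 the KO points lie above all WT points at P21 and P35, while those of Psmd9, Psma3 and Psmb9 overlap at both ages.

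The immune subunits were not called at any age under TMM. With library totals, which gave 35 calls among the 37 genes at P35 and a median of all genes of 0.44, not all of the immune subunits stayed uncalled. Psmb8 (chr17:34197721-34201454) was at 4.38, 7.79, 5.36 and 5.15 CPM in WT and at 5.97, 5.62, 7.503 and 6.26 CPM in KO at P35 (0.16 ± 0.18, adjusted P = 0.493). Its groups overlapped at P21 as well, with 3.61 to 4.95 CPM in WT and 3.25 to 4.68 CPM in KO. Psmb9 (chr17:34181987-34187764) was at 1.83, 2.93, 1.79 and 2.18 CPM in WT and at 2.38, 2.20, 2.76 and 2.62 CPM in KO at P35 (0.19 ± 0.18, adjusted P = 0.434). WT replicate 2 held the highest WT value of both genes. The Tap1 gene overlaps Psmb9 on the opposite strand and had 324% as many counts, and the sources used here do not say whether the counting used the strand, so the low counts of Psmb9 are uncertain. Psmb10 (chr8:105935735-105938444) was at 8.98, 11.7, 10.3 and 11.6 CPM in WT and at 12.7, 13.2, 14.95 and 14.4 CPM in KO at P35. Its groups were apart, but the difference of 0.38 ± 0.10 was not called (adjusted P = 0.0177).

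The ratio of each immune subunit to its constitutive counterpart is free of the scaling between libraries. At P35 Psmb8 was at 2.68% of the level per kb of Psmb5 in WT and 2.5% in KO, Psmb9 at 1.09% of Psmb6 in both, and Psmb10 at 3.55% of Psmb7 in WT and 4.11% in KO. At P21 the log2 ratio of Psmb8 to Psmb5 was -5.37 ± 0.27 in WT and -5.83 ± 0.32 in KO (SD, n = 4). Its difference had P = 0.0857 in an exact permutation test, two-sided, and 0.514 after adjustment over the 12 ratios tested. The lowest P of the 12 was 0.0286 for Psmb10 over Psmb7 at P1, which is the smallest that 4 against 4 libraries can give, with an adjusted P of 0.343. With that smallest P, no ratio could reach an adjusted P of 0.01, so these tests cannot show whether the ratios differed.

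Leukocyte and macrophage markers moved with genotype in the same libraries. Their summed level was 44.2 to 63.4 CPM in WT and 78.7 to 100.2 CPM in KO at P21, and 56.6 to 67.2 CPM in WT and 87.4 to 146 CPM in KO at P35. Of the markers tested, 3 of 9 rose at P21 and 6 of 8 at P35. Cd68, a lysosomal protein of macrophages, rose by 1.23 ± 0.22 at P21 and 1.70 ± 0.20 at P35 on the log2 scale, from 1.77 to 2.56 CPM in WT to 4.76 to 8.34 CPM in KO at P35. The summed markers were highest in KO replicate 2 at P35, which held the lowest summed proteasome level of the 4 KO libraries of that age. So few libraries cannot relate these sums, and the part of these cells in the values of the proteasome genes was not tested.

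**Figure D4:**
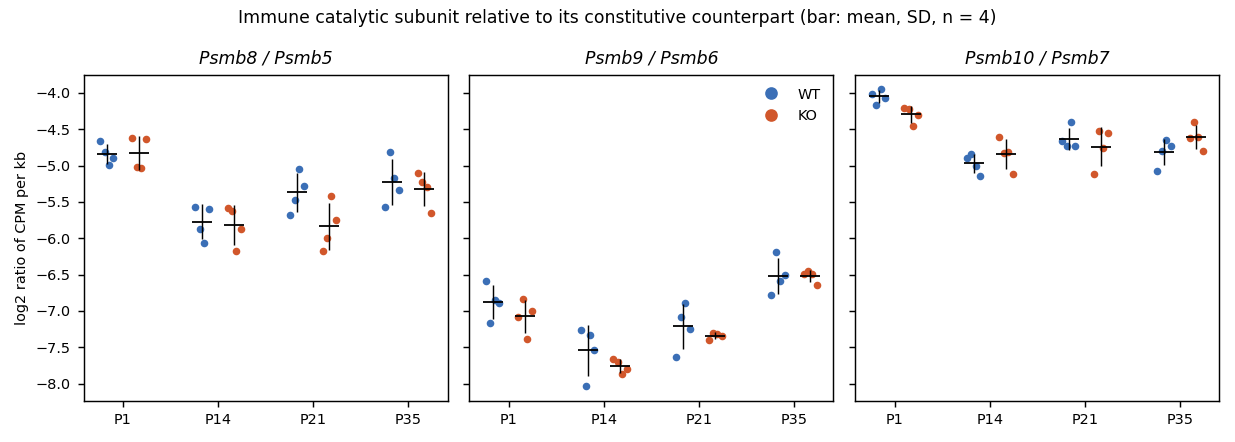
Log2 ratio (y axis) of the level per kb of each immune catalytic subunit to its constitutive counterpart, by age and genotype, with 1 point per library and bars for mean and SD (n = 4). The highest point lies at -3.95, and at P35 the means of WT and KO are -5.22 and -5.32 for Psmb8 over Psmb5 and -6.52 for both genotypes for Psmb9 over Psmb6.

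Before P21 no proteasome gene was called. At P1 the median log2 fold change of 38 genes was -0.02 with 13 above 0 (52.8% of all genes), and the smallest adjusted P was 0.216. This belonged to Psmb10, which was at 12.4, 12.5, 12.4 and 11.3 CPM in WT and at 9.70, 10.4, 10.3 and 10.01 CPM in KO, apart in the direction opposite to P35. KO libraries lay below all WT libraries for 2 genes at P1 (5.26%, against 4.24% of all genes) and above them for none (4.49% of all genes). At P14 they lay above for 1 gene (2.7%, against 3.08%), Psmb10, and below for none (1.74% of all genes). Without adjustment, 2 genes had P under 0.05 at P1 (5.26%, against 10.9%) and 4 at P14 (10.8%, against 6.82%), and in DESeq2 none was called at either age. At P14 the median was 0.09 with 31 of 37 genes above 0 (50.1% of all genes). Across all genes 0.0442% rose and 0% fell at P1, and 0.0318% rose and 0.00636% fell at P14, so few genes of any kind were called. Same-numbered WT and KO libraries of P14 deviated together. With the replicate number as a block, none of the 37 genes was called either, with 16 at an unadjusted P under 0.05 and a smallest adjusted P of 0.0162. The share of all genes under that block is not given.

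From P1 to P14 proteasome genes were higher at the later age in both genotypes. For comparisons over ages CPM was scaled over all 32 libraries. In WT 28 of 38 genes rose (73.7%, against 33.5% of all genes) and 1 fell (2.63%, against 37%), and in KO 32 rose (84.2%, against 29.3%) and 1 fell (2.63%, against 33.3%). The gene that fell in both was Psma8, whose counts went from 32, 17, 21 and 37 in WT libraries at P1 to 4, 1, 8 and 0 at P14. All 6 ATPases rose in both genotypes, with medians of 0.80 in WT and 0.86 in KO, as did 10 of 11 non-ATPase subunits in WT and 11 of 11 in KO. The highest log2 fold changes were those of Psmd12 (1.38 ± 0.10 in WT, 1.39 ± 0.10 in KO) and Psmd6 (1.31 ± 0.07 and 1.35 ± 0.09). None of the immune subunits rose in WT, and Psmb10 rose in KO. Psmd10, Psmd5 and Psma5 were not called in either genotype.

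The rise from P1 to P14 depended on what the libraries were scaled to. With library totals instead of TMM, 6 genes rose and 13 fell in WT and 8 rose and 8 fell in KO. The median of all genes then moved to -0.85 in WT and -0.81 in KO, and the proteasome genes lay 0.74 and 0.89 above it, as they did under TMM (0.74 and 0.90). The rise is thus relative to the bulk of genes. The keratinocyte markers at P1 named above also separate these ages, and their part was not tested.

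After P14 few genes were called at single steps in either genotype. From P14 to P21, 29 of 37 genes were below 0 in WT (median -0.06), where 46.8% of all genes were above 0. In WT 2 fell, Psma5 by 0.43 and Psmd10 by 0.40 on the log2 scale (5.41%, against 4.36% of all genes), while none rose (5.57% of all genes). In KO 27 of 37 were above 0 (median 0.12), as were 48.9% of all genes. Psmd11 and Psmd5 rose by 0.47 and 0.40 (5.41%, against 5.31%), and none fell (5.02% of all genes). From P21 to P35 none was called in WT in edgeR, where 2.99% of all genes rose and 1.78% fell. Of the 37 genes, 15 had an unadjusted P under 0.05 (40.5%, against 34.4%), 6 were called by DESeq2 (share of all genes not given), and the median was 0.15. In KO 4 rose, Psmb9 by 0.85, Psmd10 by 0.74, Psmb1 by 0.53 and Psma5 by 0.46 (10.8%, against 3.46%) and none fell (4.14% of all genes). These steps use the same libraries as the comparisons of genotypes and are not separate evidence. Psmd8 had WT group means of 91.2, 131, 108 and 154 CPM from P1 to P35 and KO group means of 89.9, 154, 183 and 211 CPM. Its steps from P14 to P21 were not called in either genotype (log2 fold change -0.31 ± 0.09 in WT, adjusted P = 0.0351, and 0.26 ± 0.10 in KO, adjusted P = 0.0828).

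**Figure D5:**
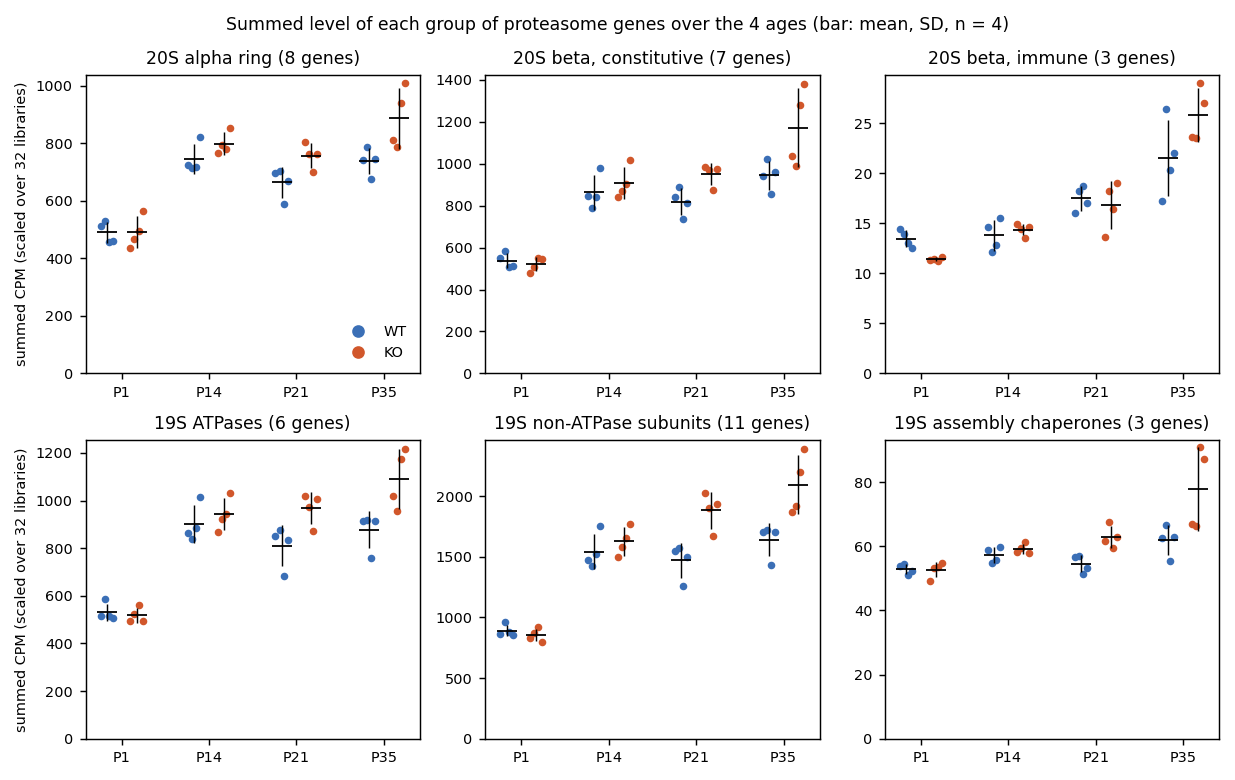
Summed CPM (y axis, scaled over all 32 libraries, from 0) of 6 groups of proteasome genes at the 4 ages in WT (blue) and KO (orange), with 1 point per library and bars for mean and SD (n = 4). The mean sums of all 6 groups are lowest at P1 in both genotypes. In WT the margin is small for the assembly chaperones (52.9 CPM, against 54.5 at P21) and the immune subunits (13.5 CPM, against 13.8 at P14). At P21 the KO mean of the 19S non-ATPase subunits (1883 CPM) exceeds the WT mean (1470.1 CPM).

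The difference between genotypes was compared between neighbouring ages as an interaction in 1 fit of all 32 libraries. None of the 38 genes was called for P14 minus P1, P21 minus P14 or P35 minus P21, where 0.0161%, 0.425% and 0.463% of all genes were called. For P21 minus P14 the median interaction was 0.23 with 32 of 38 genes above 0 (49.8% of all genes), and 15 genes had an unadjusted P under 0.05 (39.5%, against 12.9% of all genes). The smallest adjusted P was that of Psmd8 (0.57 ± 0.16, adjusted P = 0.0664), followed by Psmd5 (0.43 ± 0.12, adjusted P = 0.0787). For P35 minus P21 the median was 0.04 and 3 genes had an unadjusted P under 0.05 (7.89%, against 17.4%), and for P14 minus P1 2 genes did (5.26%, against 6.46%). The first calls at P21 therefore do not show that the KO effect differed from that at P14.

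Among themselves, the genes of the group varied together from library to library. After subtraction of the group means, the median correlation between 2 of the 37 genes was 0.69 across the 32 libraries, which share library and scaling. Psmd7 and Psma4 followed the others most closely, with median correlations of 0.83 and 0.82. The 3 immune subunits followed them least, with 0.22 for Psmb8, 0.25 for Psmb10 and 0.34 for Psmb9, and they also had among the lowest counts.

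Genes that assemble, activate or feed the proteasome were taken from 5 lists with 38 tested genes in all. None was called at P1 or P14, 2 rose at P21 (5.26%, against 4.74% of all genes) and none fell, and 5 rose (13.2%, against 12%) and 3 fell (7.89%, against 12.5%) at P35. These shares were near those of all genes, and the medians were 0.14 and 0.12. Of the 5 chaperones of the 20S core, Pomp, the factor that completes the maturation of the barrel, rose at both ages. It was at 57.6, 59.4, 52.6 and 58.7 CPM in WT and at 76.1, 88.7, 74.4 and 81.2 CPM in KO at P21, and at 73.5, 74.2, 60.2 and 68.7 CPM in WT and at 104, 99.3, 137 and 138 CPM in KO at P35. The log2 fold change was 0.49 ± 0.07 (adjusted P = 0.00225) and 0.79 ± 0.13 (adjusted P = 0.00127). Psmg4, another chaperone of the core, rose at P35 by 0.82 ± 0.15 from low levels, 2.20 to 2.87 CPM in WT and 3.65 to 4.97 CPM in KO.

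Of 5 activators and inhibitors, Psme2, a subunit of the interferon-inducible PA28 cap, rose at P35 by 0.58 ± 0.10 (adjusted P = 0.00136), with 18.6 to 23.0 CPM in WT and 27.0 to 33.8 CPM in KO. Among 9 further subunits and partners, Akirin2, which brings proteasomes into the nucleus, rose at P35 by 0.68 ± 0.07 (adjusted P = 0.000216). Adrm1, a ubiquitin receptor of the 26S particle that the rule for named genes did not take and that was chosen after its values were seen, rose at P21 by 0.46 ± 0.08. Ecpas, which tethers 26S particles and takes part in their disassembly, fell by 0.83 ± 0.11 at P35, from 284 to 403 CPM in WT to 169 to 195 CPM in KO (adjusted P = 0.000569). Ube3c, a proteasome-bound ubiquitin ligase, fell at P35 by 0.34, but was at 0.07 with library totals.

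Of 13 genes for ubiquitin, its activating enzymes and shuttle factors, none was called at P21, and Rps27a, which encodes ubiquitin fused to a ribosomal protein, rose at P35 by 0.65 ± 0.10. Ubqln4, a shuttle factor, fell by 0.45 ± 0.09 at P35 under TMM, and this call was lost with library totals. Of the 6 genes around NFE2L1, the factor that raises proteasome genes when proteasome activity is lacking, none was called at any age, with log2 fold changes of -0.05 to 0.30 at P21 and -0.34 to 0.22 at P35. Of 10 genes of antigen presentation, Tapbp rose by 0.34 and Erap1 fell by 0.44 at P35, and the Erap1 call was lost with library totals.

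Marker lists of other cells and of the fibre moved at the same ages. Of 5 endothelial markers, none was called at P21, and Cdh5 and Tek fell at P35 under TMM by 0.89 and 0.65. All 5 were below 0 at both ages, with medians of -0.42 and -0.55. Their sum was 444.8 to 693.8 CPM in WT and 350.5 to 431.7 CPM in KO at P21, without overlap. At P35 it was 265.9 to 492.3 CPM in WT and 235.7 to 293.2 CPM in KO. Of 4 fibroblast markers and 1 keratinocyte marker, none was called at P21 or P35. The log2 fold changes of the fibroblast markers ran from 0.06 to 0.50 at P21 (median 0.37) and from -0.14 to 0.26 at P35 (median 0.25). Of 8 muscle fibre markers, Des rose by 0.81 at P21 and 0.78 at P35, and Acta1, the skeletal actin, fell by 0.76 at P35 under TMM. The log2 fold changes of these markers at P35 ran from -0.81 to 1.53 (median -0.57). Myh2 was not called at P35, with a mean of 1035.8 CPM in WT and 2990.8 CPM in KO. Its KO libraries ran from 71502 to 497898 counts. The summed fibre markers were at 124040 to 154410 CPM in WT and 108100 to 118840 CPM in KO at P21, and at 95931 to 131170 CPM in WT and 68480 to 85551 CPM in KO at P35. Transcripts of mitochondrial genes at P35 took up 15.6% ± 2.34 of a WT library and 10.4% ± 0.117 of a KO library (SD, n = 4), and with these genes removed 12 proteasome genes rose at P35. The share of all genes that rose in that fit is not given. With library totals, the median of all genes moved to 0.20 at P21 and 0.44 at P35, and the proteasome genes stayed 0.31 above it at both ages.

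Each count rested on few libraries, and the share of all genes called in the fits below is not given. At P21 the 13 calls became 3 without WT replicate 1 or 4 or without KO replicate 2 or 4, 4 without WT replicate 3, 5 without KO replicate 1 and 8 without WT replicate 2, and 12 without KO replicate 3. Psmb1, Psmb3 and Psmd8 were called in all 8 of these fits. At P35 the 13 calls became 5 without KO replicate 3, 7 without KO replicate 4 or WT replicate 4, 8 without WT replicate 2 or 3, and 10 to 15 without each of the other libraries. Psma5, Psmb1, Psmd10, Psmd11 and Psmd13 were called in all 8. The median log2 fold change stayed between 0.24 and 0.37 at P21 and between 0.28 and 0.40 at P35.

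Promoter sequences of 31 of the 38 genes were taken from RefSeq on GRCm38.p6, as windows from 250 bases before to 50 bases after the start of the gene. Motifs were searched by letters on both strands and compared with the 27025 genes that have such a window. These were not limited to genes expressed in this muscle. A gene with several windows was counted once if any of them held the motif. The ETS core, CCGGAAG, lay in 10 of 31 genes (32.3%, against 9.93% of all genes), and the GC box, GGGCGG, in 19 (61.3%, against 38.2%). The antioxidant response element core, TGACNNNGC, through which NFE2L1 and NFE2L2 are known to act, lay in 5 (16.1%, against 13.99%), and CCAAT in 12 (38.7%, against 41.06%). A core of the interferon-stimulated response element lay in 3 (9.7%, against 3.99%), the NRF1 palindrome in 1 (3.2%, against 1.07%) and the cAMP response element TGACGTCA in none (0%, against 2.03%).

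The stretch of 250 bases before the start is shown for 4 genes whose stretch meets no annotated exon, with matches to the motifs in capitals. Psmd11 (chr11:80428365-80428614, + strand) and Psmd4 (chr3:95042615-95042864, - strand) carry the ETS core and were called at P35. Psma6, Psmc1, Psmc6, Psmd6 and Psmd12 also carry it but were called neither at P21 nor at P35. Of these, Psmc6 and Psmd12 hold the antioxidant response element core as well. Psmb6 (chr11:70525107-70525356, + strand) and Psmd9 (chr5:123227940-123228189, + strand) carry the antioxidant response element core and were not called at any age between the genotypes under TMM. In Psmd9 this core overlaps a GC box. All are written 5′ to 3′ on the strand of the gene.
Psmd11: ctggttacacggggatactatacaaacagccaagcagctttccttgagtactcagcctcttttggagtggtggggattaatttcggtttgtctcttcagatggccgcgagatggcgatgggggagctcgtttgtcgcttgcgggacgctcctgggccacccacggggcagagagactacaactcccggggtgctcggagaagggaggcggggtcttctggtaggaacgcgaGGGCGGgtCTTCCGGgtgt
Psmd4: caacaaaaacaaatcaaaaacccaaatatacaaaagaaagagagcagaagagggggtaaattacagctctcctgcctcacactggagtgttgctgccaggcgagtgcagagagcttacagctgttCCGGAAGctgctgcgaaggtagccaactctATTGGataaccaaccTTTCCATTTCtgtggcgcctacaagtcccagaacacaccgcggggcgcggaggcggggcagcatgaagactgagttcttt
Psmb6: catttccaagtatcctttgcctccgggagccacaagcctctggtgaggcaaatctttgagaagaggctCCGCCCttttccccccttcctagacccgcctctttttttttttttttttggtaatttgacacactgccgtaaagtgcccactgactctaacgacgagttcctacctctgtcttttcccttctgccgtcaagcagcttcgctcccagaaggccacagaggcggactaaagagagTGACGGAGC
Psmd9: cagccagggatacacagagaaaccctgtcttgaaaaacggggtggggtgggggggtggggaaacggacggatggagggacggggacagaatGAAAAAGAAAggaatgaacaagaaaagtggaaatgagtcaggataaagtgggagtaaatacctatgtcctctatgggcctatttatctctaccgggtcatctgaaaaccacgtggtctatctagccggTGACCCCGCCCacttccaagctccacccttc
The genes with the ETS core had a median log2 fold change in KO of 0.33 at P21 and 0.34 at P35, and those without it 0.31 and 0.34. For the antioxidant response element core the medians were 0.17 and 0.22 with it (5 genes) and 0.38 and 0.36 without it (26 genes). These are descriptions of letters in a window and not of binding.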

How the data were processed

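Symbols and coordinates were taken from GENCODE M21 (GRCm38). Per the processing notes, poly(A) libraries from a directional kit were read from both ends, aligned by the authors with STAR 2.6.1, and summarised with RSEM 1.2.22 into expected counts per gene, which were deposited unscaled for each library, while the paper's methods name HTSeq. Expected counts share reads between similar loci, and 8 of the 38 genes had non-whole values. Besides Psma3, Psma4 and Psma5, these were Psmb5 and Psmd1 in 32 libraries, Psmb3 in 25, Psmd2 in 13 and Psmd11 in 7. After rounding, edgeR 4.0.16 under R 4.3.3 was used (filterByExpr, TMM, glmQLFit, glmQLFTest, two-sided, Benjamini-Hochberg over all genes), with 4 against 4 libraries per comparison. Interactions used 1 fit of 32 libraries. Alternatives were DESeq2 1.42.0, RLE factors, library totals, no filter or 10 counts in every library, 1 fit of all libraries, other thresholds, a block for the replicate number, removal of mitochondrial genes and leaving out each library. The labels give each group the replicate numbers 1 to 4 without saying what a number shares. Same-numbered WT and KO libraries deviated together at P14 (r of 0.47 to 0.83 over 13605 genes), where every pair was above 0.1. At P1, P21 and P35 not every pair was, and the numbers were not taken as a pairing. No 2 libraries agreed within sampling noise.
The genes and lists were chosen with earlier results of these data known. Values per library are given for genes past an adjusted P of 0.01 and a log2 fold change of about 0.59, for the immune subunits with their counterparts, and for the 2 highest and 2 lowest genes at P21 and P35. Of the other lists, up to 3 called genes with the smallest adjusted P at P35 are named. Scripts were tested on simulated counts. Tables and figures used matplotlib 3.10.9, pandas 2.3.3 and numpy 2.4.6 under python 3.11.15.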

Additional observations from a re-analysis of the deposited data

Results flagged for a closer look

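Among 56 groups of 4 libraries at P21 and P35, 3 held a library whose distance from its nearest neighbour took up more than 0.83 of the range of the group, and chance alone marks about 1 group in 20. In KO at P21, replicate 3 had the lowest level of Psmb5, 110.8 CPM against 128 to 130.02 CPM in the other libraries, and of Psmb7, 199 CPM against 219 to 222 CPM. In WT at P35, replicate 3 had the lowest summed level of the 38 genes, 3264 CPM against 3791 to 3853 CPM.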

How the results depend on the processing

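At P1 and P14 no proteasome gene was called between the genotypes under any alternative. The counts in this section are of proteasome genes alone. The share of all genes called in the same setting is not given in this section, so a higher count is not particular to this group. The 13 calls at P21 became 32 with library totals, 24 at an adjusted P under 0.05 and 1 with the fold limit. The 13 at P35 became 35 with library totals, 20 in DESeq2, 22 in 1 fit of all libraries, 25 at an adjusted P under 0.05 and 4 with the fold limit. With library totals the medians were 0.51 and 0.75, where those of all genes were 0.20 and 0.44. Leaving out 1 library gave 3 to 12 calls at P21 and 5 to 15 at P35.
From P1 to P14, library totals gave 19 calls in WT and 16 in KO. From P14 to P21 the 2 calls in WT became 12 with library totals, 4 in DESeq2, 4 in 1 fit of all libraries, 9 at an adjusted P under 0.05 and 0 with the fold limit, and those in KO 1 with library totals, 1 without a count filter, 9 at an adjusted P under 0.05 and 0 with the fold limit. From P21 to P35, WT had 6 calls in DESeq2, 4 in 1 fit of all libraries and 7 at an adjusted P under 0.05. The 4 calls in KO became 17 with library totals, 9 in DESeq2, 10 in 1 fit of all libraries, 15 at an adjusted P under 0.05 and 2 with the fold limit. Leaving out 1 library gave 0 to 3 (WT) and 0 to 2 (KO) calls from P14 to P21, and 0 to 1 and 0 to 6 from P21 to P35. Library totals gave 3 calls for the interaction of P21 minus P14. The cause of these shifts was not tested.
Same-numbered libraries had correlated deviations in some pairs at P21 (r of 0.33, -0.054, 0.10 and 0.19 for replicates 1 to 4) and P35 (0.27, -0.14, -0.11 and 0.23), and replicates 1 and 4 matched their own number best at both ages, while the others did not. At P1 r was -0.22 to 0.058. A block for the replicate number left 21 called at P21, 7 at P35, and 0 in each of the steps from P14 to P21 in WT, P14 to P21 in KO and P21 to P35 in KO.
The direction of small log2 fold changes turned. With library totals Psmb8 was at 0.021, Psmd9 at 0.11, Ube3c at 0.058 and Ubqln4 at 0.0057 at P21, and Psma3 at 0.40 and Ube3c at 0.068 at P35. Psma3 at P35 was at 0.0078 without a count filter and at 0.019 with 10 counts in every library, and Psmd9 at -0.0013 in 1 fit of all libraries. Without 1 library, Psmb9 ran from -0.090 to 0.081, Psmb10 from -0.0063 to 0.17 and Psma3 from -0.051 to 0.082 at P21, and Psma3 from -0.093 to 0.032 and Psmd9 from -0.058 to 0.11 at P35.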
